A study of Mus musculus with 10 samples.

Results

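The wide H3K27me3 peaks of a mouse B-cell lymphoma line were taken from its ChIP-seq peak list as all peaks that spanned at least 500 bp, with both ends counted. There were 549 such peaks among the 10778 of the parental list, or 5.09%. They covered 419 kb of the 1632 kb in peaks, or 25.7% of the covered length. The parental line is a single lymphoma line of genotype Cdkn2a-/-, Eμ-Myc on the C57BL/6J strain, in which an immunoglobulin heavy-chain enhancer drives Myc in B-lineage cells and the Cdkn2a locus is deleted. It had not been selected with mafosfamide, an alkylating agent. The R100, R500, R1000 and R4000 lines carry the same genotype and were derived from it by dose escalation of mafosfamide, with harvests at 100 nM on day 10, 500 nM on day 18, 1000 nM on day 23 and 4000 nM on day 37, and all 5 lines were grown without the drug for ChIP-seq. The antibody was H3K27me3 (Active Motif cat # 39155).

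H3K27me3, the trimethyl mark on lysine 27 of histone H3, is written by Polycomb repressive complex 2 (PRC2) and is bound by the Cbx subunits of Polycomb repressive complex 1 (PRC1). Both complexes keep genes silent that were set aside in the embryo, above all the transcription factors that specify other lineages. In mammals the mark gathers over CpG islands, stretches rich in unmethylated CpG at gene starts, and it can spread over a whole gene cluster such as Hox. A list of peaks gives the extent of the mark and not its height. With 1 list per line there was no spread between replicates, so no difference between lines was tested, and Wilson intervals on shares cover counting of peaks or genes only. Where 5 values follow one another they are for the parental line and then the resistant lines by rising dose, and 4 values are for the resistant lines in that order. A larger share of cells with the mark and more of the mark per cell cannot be told apart in such lists.

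The sequence of the wide peaks varied from CpG islands to stretches with hardly a CpG. For 5 peaks, the 300 bp nearest the centre that hold no annotated UTR are shown to give this range, read from mm9 on the plus strand with every CpG in capitals. The Atf3 stretch lies in the widest peak of the parental list (chr1:193008926-193009225, 14 CpGs). The Hoxa11 stretch (chr6:52203051-52203350, 18 CpGs) comes from the widest peak whose nearest gene is a Hox gene. The Hnrpll stretch (chr17:80461033-80461332, 41 CpGs) has the highest CpG content among peaks with a stretch outside annotated UTRs and no other copy in the genome. The Igkv15-103 stretch (chr6:68385926-68386225, 1 CpG) lies in the immunoglobulin kappa variable region and belongs to the wide peak with the lowest CpG content. The Pcp4l1 stretch (chr1:173126801-173127100, 2 CpGs) comes from a 600-bp peak that no resistant line shared. The Hoxa11 and Pcp4l1 stretches were chosen after their values were seen.
Atf3: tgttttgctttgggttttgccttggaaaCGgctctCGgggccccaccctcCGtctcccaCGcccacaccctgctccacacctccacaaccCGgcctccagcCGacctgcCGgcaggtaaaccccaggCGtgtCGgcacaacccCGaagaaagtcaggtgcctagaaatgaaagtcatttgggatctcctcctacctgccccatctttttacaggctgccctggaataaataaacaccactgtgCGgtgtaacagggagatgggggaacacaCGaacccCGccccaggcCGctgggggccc
Hoxa11: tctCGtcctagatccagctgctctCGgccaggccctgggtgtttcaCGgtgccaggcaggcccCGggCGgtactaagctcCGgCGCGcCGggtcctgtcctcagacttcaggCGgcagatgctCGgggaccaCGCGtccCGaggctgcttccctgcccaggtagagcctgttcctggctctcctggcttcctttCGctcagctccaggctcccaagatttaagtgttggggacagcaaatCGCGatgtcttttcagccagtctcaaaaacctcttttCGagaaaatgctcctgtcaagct
Hnrpll: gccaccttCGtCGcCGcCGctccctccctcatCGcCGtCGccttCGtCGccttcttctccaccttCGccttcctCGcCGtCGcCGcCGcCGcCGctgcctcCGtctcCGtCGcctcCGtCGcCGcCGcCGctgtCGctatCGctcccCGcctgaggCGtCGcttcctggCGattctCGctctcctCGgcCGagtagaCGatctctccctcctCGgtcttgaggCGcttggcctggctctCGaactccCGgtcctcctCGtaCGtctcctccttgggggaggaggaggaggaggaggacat
Igkv15-103: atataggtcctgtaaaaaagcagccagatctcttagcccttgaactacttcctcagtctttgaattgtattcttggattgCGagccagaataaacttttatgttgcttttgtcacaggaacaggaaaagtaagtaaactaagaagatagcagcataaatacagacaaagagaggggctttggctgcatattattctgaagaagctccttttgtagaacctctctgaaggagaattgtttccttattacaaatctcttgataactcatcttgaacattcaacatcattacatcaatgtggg
Pcp4l1: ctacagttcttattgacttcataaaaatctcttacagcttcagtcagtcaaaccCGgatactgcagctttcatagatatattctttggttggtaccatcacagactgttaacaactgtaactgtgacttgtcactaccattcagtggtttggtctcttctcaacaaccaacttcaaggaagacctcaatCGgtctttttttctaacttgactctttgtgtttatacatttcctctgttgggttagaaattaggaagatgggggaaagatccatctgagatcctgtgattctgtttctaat

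The median width of the wide peaks was 650 bp, with quartiles at 550 and 850 bp, and 90 of them reached 1000 bp. Only 6 reached 2000 bp. The limit of 500 bp cut through a continuous range, since 102 peaks were exactly 500 bp wide and 112 were 450 bp wide. Within 5 kb of a transcription start site (TSS), the 5′ end of an annotated gene, lay 78.4% of the 500-bp peaks and 76.8% of the 450-bp peaks, and within 2 kb 54.9% and 65.2%.

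The widest peak spanned 3250 bp and began 232 bp upstream of the TSS of Atf3, a stress-induced bZIP transcription factor (chr1:193007451-193010700). R100 and R500 covered all of it, R1000 covered 2750 bp and R4000 covered 2950 bp. In no line did more than 500 bp of it lie outside a peak.
The next widest lay 3725 bp from the kappa variable segment Igkv2-112 and spanned 2900 bp (chr6:68163351-68166250). Its CpG observed/expected ratio, which compares the number of CpGs with that given by the C and G content, was 0.079, far below the 0.584 of the Atf3 peak. The resistant lines covered 1950, 2050, 2000 and 1750 bp of it, values close to one another and all below the parental width.
The third, of 2800 bp, lay 5588 bp upstream of Hoxa11, a homeobox gene of limb and reproductive tract patterning (chr6:52201801-52204600), and R4000 still covered 2400 bp of it.
The others among the 10 widest lay 2399 bp from the microRNA Mir335 in the imprinted Mest gene (2350 bp), at Hoxa9 (2250 bp), in the body of the LIM homeobox gene Lhx9 (2150 bp), over the TSS of F11r, which encodes a junctional adhesion molecule (1900 bp), 16268 bp upstream of the PRC1 subunit gene Cbx8 (1900 bp), and at the semaphorin receptor gene Plxnd1 (1850 bp) and the semaphorin gene Sema4c (1800 bp). Of these, the Cbx8 peak was wholly covered in all 4 resistant lines, while R4000 covered 1350 of the 1900 bp at F11r and 1200 of the 1850 bp at Plxnd1.

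The wide peaks lay close to gene starts. A TSS was within 5 kb of 429 of the 549, or 78.1% (95% Wilson interval 74.5 to 81.4), compared with 54.4% of all parental peaks and 53.2% of the 10229 narrower ones. A TSS lay inside 57 peaks, 280 more were within 2 kb and 92 lay between 2 and 5 kb. A further 48 were deeper in a gene body and 72 were intergenic. A wide peak has more room to hold a TSS, so its share with a TSS inside (10.4%, against 1.03% of narrower peaks) follows in part from the rule.
Of the 429 near a TSS, 233 lay downstream of it and 139 upstream, or 54.3% and 32.4%. Narrower peaks near a TSS were split more evenly, 52.6% downstream and 45.5% upstream. Exons made up 23.3% of the bases of the wide peaks and 13.8% of those of the narrower ones.

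**Figure D1:**
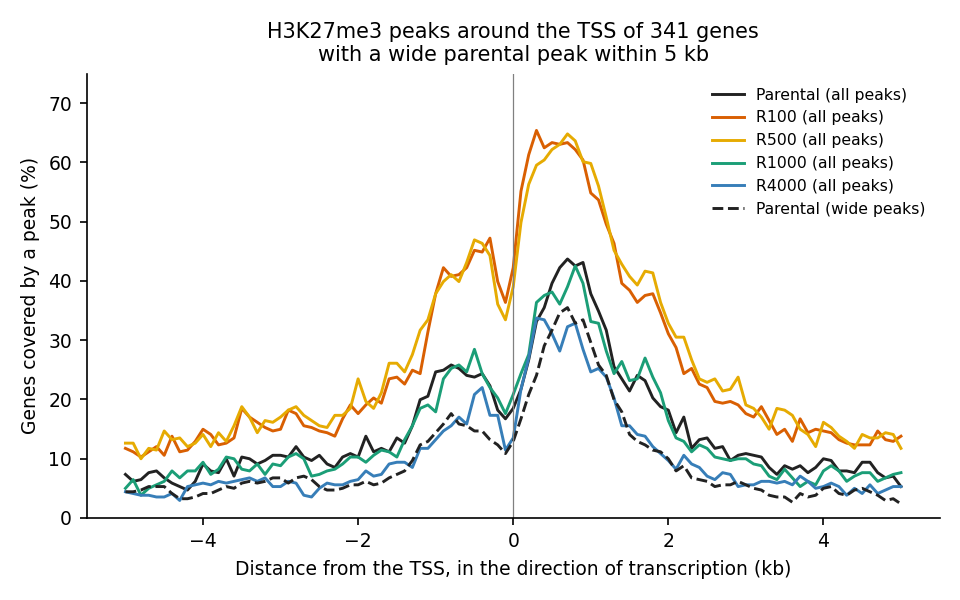
Share of the 341 protein-coding genes (by gene identifier) with a wide parental peak within 5 kb that a peak covered, at each distance from the TSS in kb (negative upstream), for all peaks of the 5 lines and, dashed, for the wide parental peaks alone. The wide peaks covered 35.5% of the genes at 700 bp downstream and 12.9% at the TSS itself.

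Around the genes that carry them, the wide peaks had a dip at the TSS. They covered 35.5% of the 341 genes at 700 bp downstream and 12.9% at the TSS. The same dip was present in each line when all its peaks were counted. In R100 the share was 65.4% at 300 bp downstream and 42.2% at the TSS. In R4000 it was 33.7% and 13.5% at the same distances. The genes were chosen by the parental list, so the height of these curves is a description.

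The wide peaks were rich in CpG. Their median CpG observed/expected ratio was 0.535 (95% interval of the median 0.492 to 0.559) and their median GC content 53.0%, compared with 0.272 and 49.0% for the narrower peaks. Because very short stretches give coarse ratios, the ratio was also read over 500 bp around the centre of every peak. There the median was 0.512 (0.480 to 0.537) for wide and 0.261 (0.257 to 0.267) for narrower peaks, and the ratio was 0.191 over chromosomes 1 to 19 and X. By width the median over 500 bp ran from 0.218 for the peaks of 50 bp to 0.545 for those of at least 1000 bp. A GC content over 50% and a ratio over 0.6, both read over the peak itself, were taken as like a CpG island. This held for 179 wide peaks (32.6%) and 12.1% of narrower peaks, where peaks as short as 50 bp give coarse ratios. Peaks with a TSS inside had a median of 0.642 over the peak itself, and those in gene bodies over 5 kb from a TSS had 0.323.

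**Figure D2:**
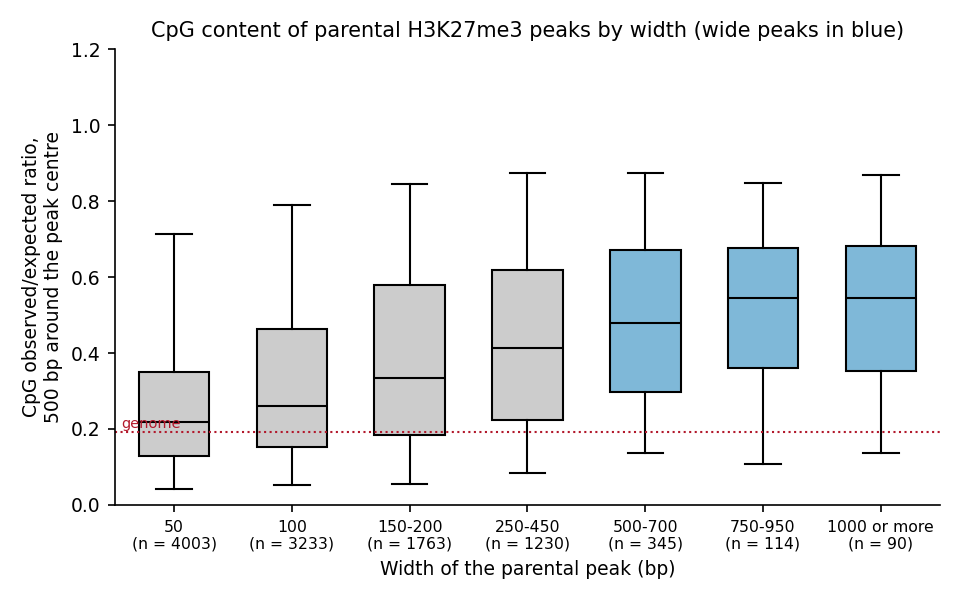
CpG observed/expected ratio over 500 bp around the centre of each parental peak, by peak width in bp. Boxes give quartiles and median, whiskers the 5th and 95th percentiles, and the dotted line the ratio of the genome. The median runs from 0.218 at 50 bp to 0.545 at 1000 bp or more.

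The 549 peaks fell into 374 loci when peaks within 10 kb were joined. Of these, 285 held 1 wide peak, and 9 held at least 5, with 70 wide peaks among them.
The largest was the Hoxa cluster (chr6:52161851-52226700), with 22 wide peaks of 500 to 2800 bp and 25950 bp in wide peaks. Another 47 narrower peaks filled the spaces between them. All peaks together covered 35750, 45450, 46800, 31450 and 25850 bp of the locus. R100 and R500 thus covered more of the locus than the parental line and R4000 less. Each of the 22 was overlapped in R100, R500 and R1000, and 21 were in R4000, where the median peak was covered over 71.6% of its width. The exception was an 800-bp peak 15027 bp from Hoxa13.
The second locus lay upstream of Cbx8 (chr11:118902901-118920450), with 10 wide peaks and 9450 bp in them. All peaks covered 10950, 14850, 15300, 11450 and 10350 bp of it. The difference between R4000 and the parental line was smaller here than at Hoxa.
The third held the zinc-finger gene Osr2 (7 wide peaks, 6500 bp) and the fourth Lhx9 (5 wide peaks, 5450 bp). The fifth (chr8:12382851-12398650, 6 wide peaks, 5150 bp) was at Gm5607. RefSeq names that gene Sox1ot and places Sox1, a neural transcription factor gene, within its span. Loci at the muscle homeobox gene Lbx1, the cyclin D2 gene Ccnd2, Sp9, Atf3 and Hnrpll, which encodes a splicing regulator of lymphocytes, followed.
Chromosome 6, which holds Hoxa and the kappa locus, had 83 wide peaks, or 55.5 per 100 Mb, the highest density of any chromosome, followed by chromosome 11 with 44.3. Peaks of 1 locus count singly there. As loci per 100 protein-coding genes, chromosomes 6 and 1 were alike at 3.16 and 3.15, and chromosome 11 had 2.06. None of the 68 parental peaks on the X chromosome was wide, and the widest there was 350 bp. A rough upper limit of 3 counts of the 68, not a Wilson interval, is 4.41%. That is close to the 5.09% of all parental peaks that were wide, and a difference was not tested.

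Over 5 kb from every TSS there were 120 wide peaks, the 48 in gene bodies and the 72 between genes. The 5 widest were the peak upstream of Hoxa11, the peak in Lhx9, the peak upstream of Cbx8 and a 1750-bp peak 7691 bp upstream of the heart homeobox gene Nkx2-5, followed by a second peak in Lhx9 of 1650 bp. Each of these lay beside a developmental or Polycomb gene. The next, of 1600 bp, lay 9778 bp from Tmem64, had a CpG ratio of 0.113 and was covered over 850, 1050, 500 and 400 bp.

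A wide peak lay within 5 kb of the TSS of 339 of 22225 protein-coding genes, or 1.53%, and any parental peak near 11%. Genes with a shared start region share their peaks, so the 339 are not independent. Genes were counted in 18 lists of developmental regulators, signalling genes, Polycomb genes, blood lineages and ribosomal proteins.
Together the 11 lists of developmental transcription factors held 214 genes, of which 33 (15.4%) had a wide peak. These 33 were 9.73% of the 339. That share depends on which genes the lists hold, since other developmental transcription factor genes with a wide peak, such as Osr2, Sp9, Lbx1, Tcfap2a, Sim1 and Hey1, are in none of them.

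**Figure D3:**
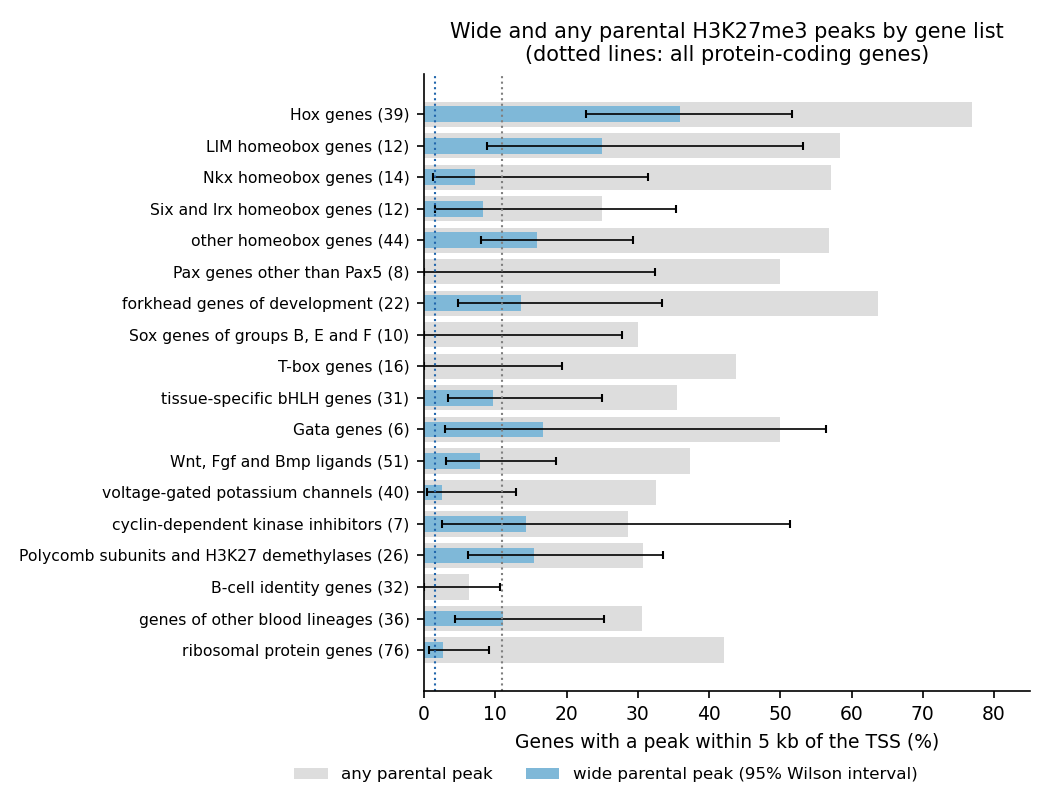
Share of each gene list (number of genes in brackets) with a wide parental peak (blue, with 95% Wilson intervals) or any parental peak (grey) within 5 kb of the TSS. Dotted lines give all protein-coding genes, 1.53% for wide and 11% for any peaks. Hox genes reach 35.9% for wide peaks, and the B-cell list has none.

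Hox genes, which set position along the body axis, led the lists with 14 of 39 (35.9%). They were 9 of the 11 Hoxa genes and 5 of the 9 Hoxc genes. No Hoxb gene of 10 and no Hoxd gene of 9 had a wide peak, although 6 and 5 of them had narrower ones. The Hoxb cluster was not without wide peaks, since 2 of 650 and 700 bp lay 6421 and 7321 bp from the TSS of Hoxb9, near the microRNA Mir196a-1, and 3 of 500 to 950 bp lay between 15880 and 21580 bp from that of Hoxb13. The Hox genes with the most bases in wide peaks were Hoxa3, Hoxa7, Hoxa9 and Hoxa11.
Within 5 kb of its TSS, Hoxa3 had 5638, 7288, 7888, 5138 and 3838 bp in peaks. Hoxa9 had 5813, 7951, 8101, 6301 and 4763 bp. Hoxb8, with narrower parental peaks only, had 1100, 4751, 5169, 1469 and 1450 bp. The Hoxb gene was thus covered over fewer bases than the Hoxa genes in each line.

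Among the LIM homeobox genes, which act in neuron and limb identity, 3 of 12 had a wide peak, namely Isl2, Lhx9 and Lhx2. Of the 44 genes of the list of other homeobox genes 7 did, namely Vax2, Dlx1, Pou4f1, Gbx1, Barhl2, Barx1 and Dlx2, most of them known from the developing brain and face. Nkx2-3 (1 of 14 Nkx genes) and Irx5 (1 of 12 genes of the sine oculis and Iroquois homeobox families) added 1 each. Within 2 kb of a TSS the count was 1 for the LIM genes and 3 for the list of other homeobox genes. It was 12 for the Hox genes at that distance, and the Nkx and the sine oculis and Iroquois lists kept 1 each. The lists do not hold every homeobox gene, and Lbx1, Tlx2, Shox2, Dbx1, Hmx2, Hmx3 and Pbx3, which are in none of them, also had a wide peak.
Foxc1, Foxc2 and Foxq1 were the 3 of 22 genes of the forkhead list. Foxi3 and Foxo6, outside the list, also had a wide peak. Foxc1, a regulator of mesoderm, had 4 wide peaks and 3936, 6086, 6486, 4536 and 2386 bp in peaks within 5 kb of its TSS.
The bHLH list gave Hand1 of the heart and Neurog3 and Neurog2 of endocrine and neural progenitors (3 of 31). No Pax gene of 8, no matched Sox gene of 10 and no T-box gene of 16 had a wide peak. Sox1 was not matched and so not counted. RefSeq places it within the span of Gm5607, whose locus held 6 wide peaks. The Pax, Sox and T-box lists were not free of the mark, since 4, 3 and 7 of their genes had narrower peaks. Their upper Wilson limits of 32.4%, 27.8% and 19.4% all exceed the share over the 11 lists.
Of the Wnt, Fgf and Bmp ligands 4 of 51 had a wide peak. Fgf9 carried the most, with 2700, 3500, 3750, 4200 and 3100 bp, so that each resistant line was above the parental value. Wnt10a, Wnt6 and Fgf15 were the others. Among 40 voltage-gated potassium channels 1, Kcnh3, had a wide peak (2.5%, interval 0.443 to 12.9), near the 1.53% over all genes. Any parental peak lay near 13 of them (32.5%, against 11% over all genes).

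Genes of the Polycomb machinery themselves carried the mark. Of 26 subunits and H3K27 demethylases, 4 had a wide peak (15.4%, interval 6.15 to 33.5), and all 4, Cbx8, Bmi1, Cbx2 and Pcgf2, encode subunits of PRC1. Rybp, of variant PRC1, with 2 wide peaks and 1350 bp in them, and the Polycomb gene Sfmbt1, with 1 wide peak of 700 bp, are not in the list.
The number of bases in peaks within 5 kb of the TSS of Cbx8 was 2800, 3833, 3933, 3283 and 2833. At Bmi1 it was 1056, 1706, 1306, 1056 and 1200. No resistant line fell below the parental value at either gene.
Pcgf2 had 800, 2800, 2200, 1150 and 650 bp and Cbx2 1100, 1600, 1700, 1100 and 850 bp. At both, R4000 had fewer bases than the parental line.
Another 4 genes had narrower peaks only, with 300 bp at the demethylase gene Kdm6b, 100 bp at Cbx6, and 50 bp each at Phc1 and at Rnf2, which encodes the ubiquitin ligase of PRC1.

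The label of the line as a B cell was set against 32 genes of B-cell identity and 36 of other blood lineages. No gene of the B-cell list had a wide peak (0 of 32, upper Wilson limit 10.7%), and 2 had narrower ones. With 1.53% over all genes, a count of 0 in a list of this length is near the background. The list holds no immunoglobulin gene segment, and 4 wide peaks had a kappa variable or joining segment as the nearest gene, among them the 2900-bp peak near Igkv2-112. The 2 list genes with narrower peaks were Bcl6, the germinal-centre repressor, with 750 bp, and Rag1, a recombinase of early lymphocytes, with 58 bp.
Any peak thus lay near 6.25% of the list in the parental line, where the share over all protein-coding genes was 11%, and a difference is not detectable with 2 genes. In the resistant lines any peak lay near 17, 15, 11 and 9 of the 32, where the shares over all protein-coding genes were 31.5%, 24.5%, 14.5% and 12.6%. There the share of the list was above that of all genes in each line, with no test of the difference. This was not particular to the B-cell list. It also held for the 36 genes of other blood lineages, with 18, 17, 9 and 8. The 76 ribosomal protein genes, with 66, 65, 54 and 60, were above all genes too. A gene without a peak is not thereby shown to be expressed.
Of the genes of other blood lineages 4 of 36 had a wide peak (11.1%, interval 4.41 to 25.3, against 1.53% over all genes). Any parental peak lay near 11 of the 36 (30.6%, against 11% over all genes). The 4 with a wide peak were Tal1, of blood stem cells and the erythroid line, Gata3, of T cells, Id2, an inhibitor of E proteins that acts in innate lymphoid cells, and Flt3, a receptor of early progenitors.
Tal1 had 2400, 3900, 4200, 3000 and 2850 bp in peaks. Gata3 had 900, 1200, 1740, 290 and 0 bp. In R4000 Gata3 was thus without a peak near its TSS, and Tal1 had more bases in peaks than in the parental line. Id2 had 1407, 2607, 2957, 1557 and 2007 bp, and Flt3 1000, 1800, 2000, 1150 and 850 bp.

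Ribosomal protein genes, which are highly expressed in dividing cells, differed from the Hox genes in the kind of peak. Of 76 genes 32 (42.1%) had a parental peak within 5 kb, against 11% over all protein-coding genes. Only 2, Rpl12 and Rpl23a, had a wide one (2.63%, interval 0.725 to 9.10), near the 1.53% over all genes. Rpl12 shares its wide peak with Lrsam1, and Rpl23a had 336 bp of wide peak within 5 kb of its TSS. Within 2 kb the count was 1. Among the 7 cell-cycle inhibitors, Cdkn1a (p21) alone had a wide peak (14.3%, interval 2.57 to 51.3, against 1.53% over all genes). That peak was 500 bp wide, at the limit of the rule, and within 2 kb of a TSS the count was 0. Within 5 kb of the TSS of Cdkn1a 500, 1500, 1600, 800 and 1100 bp lay in peaks. Cdkn2a, deleted in this model, had no peak.

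The resistant lines were not used to choose the wide peaks. Of the 549, R100 overlapped 522 (95.1%, interval 92.9 to 96.6), R500 537 (97.8%, 96.2 to 98.7), R1000 510 (92.9%, 90.4 to 94.8) and R4000 467 (85.1%, 81.8 to 87.8). The same shares over all parental peaks were 42%, 43.4%, 27% and 19.6%. A wide peak offers more bases for an overlap of 1 bp, so the share of bases is the fairer measure. The resistant lines covered 81.9%, 86.6%, 62.6% and 50.3% of the bases of wide peaks, and 44.9%, 47.3%, 25.3% and 16.0% of those of narrower ones. In each line, then, a larger share of the wide bases lay in peaks. The total length of the list differed too, at 5036, 4533, 1613 and 1074 kb.

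**Figure D4:**
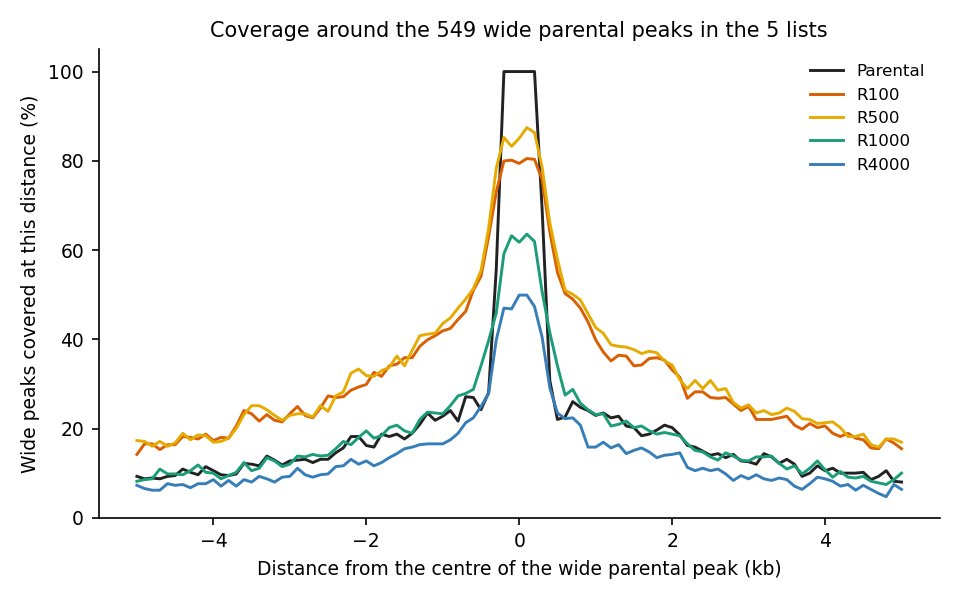
Share of the 549 wide parental peaks covered by a peak of each line, by distance from the centre of the wide peak in kb. The parental curve is 100% at the centre by construction. At 1 kb to the left R100 and R500 stand at 41.9% and 43.5%, above the parental 22.8%, and R4000 stands at 16.6%.

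Outside the wide peaks the lines also differed. At 1 kb to the left of the centre, by chromosome position, the lists covered 22.8%, 41.9%, 43.5%, 23.3% and 16.6% of the positions. The widest overlapping peak was wider than the parental one at 381 of the 549 in R100 and 407 in R500, but at 155 in R1000 and 89 in R4000. R4000 met 163 of the wide peaks with several separate pieces and R500 76. Members were picked for being wide in the parental list, so a narrower counterpart elsewhere follows in part from the rule.
Taken the other way, of the 625 peaks of R1000 that reached 500 bp, 91.7% overlapped a parental peak of any width, as did 91.8% of the 353 in R4000, 71.2% of the 2249 in R100 and 75.9% of the 2127 in R500.

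All 4 resistant lines shared 437 of the wide peaks (79.6%), and 53 were found in all but R4000. Peaks in all 4 lines had a median CpG ratio of 0.573, the 79 in 3 lines 0.331, the 22 in 2 lines 0.186 and the 7 in 1 line 0.201. The median widths of these sets were 700, 550, 550 and 500 bp. When the wide peaks were split by CpG ratio into 4 groups of 137 or 138, R4000 overlapped 66.7%, 85.4%, 93.4% and 94.9% from the lowest to the highest group and covered a median of 20%, 43.8%, 57.1% and 66.7% of their width. The same order held for the median covered share in R1000, at 31.7%, 66.7%, 75% and 76.9%. The groups also differed in closeness to genes, with 58.7% within 5 kb of a TSS in the lowest and 87.6% in the highest, and their median widths ran from 600 to 700 bp. The part of position and width in this order was not tested.
No resistant line overlapped 4 peaks, near Pcp4l1 and Spa17 (600 bp each) and near Tsga10 and the circadian clock gene Arntl (550 bp each). Their CpG ratios lay between 0.0925 and 0.147.
At the other end, 23 peaks were wholly covered in all 4. The 6 widest were both outer peaks of the Cbx8 locus (1900 and 1550 bp), a peak at the pseudogene AY036118 (1750 bp), one 2126 bp downstream of the TSS of Nr4a3, an orphan nuclear receptor gene (1400 bp), one 12061 bp downstream of that of Wnt10a (1050 bp) and one at Rtn4rl1, a gene of the Nogo receptor family (1050 bp). AY036118 is among the 5 wide peaks (0.911%) with another copy in the genome, where reads cannot be placed with certainty.

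**Figure D5:**
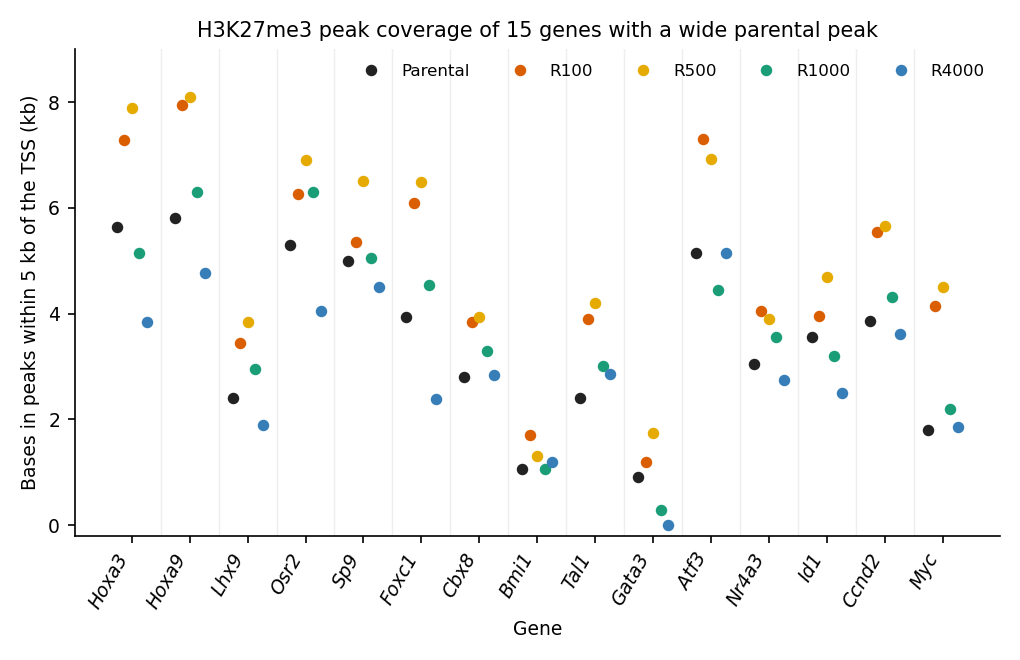
Bases in H3K27me3 peaks within 5 kb of the TSS, in kb, for 15 genes with a wide parental peak, 1 point per line. R100 and R500 lie above the parental point at all 15 genes. Gata3 is at 0 in R4000, and Atf3 has 5150 bp in both the parental line and R4000.

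Over the 339 genes with a wide peak, the median number of bases in peaks within 5 kb of the TSS was 1250, 2250, 2250, 1150 and 800. R100 had more than the parental line at 296 genes and R500 at 316. R1000 had fewer at 193 and R4000 at 278. Each of them had a peak in R100 and in R500, while 1 had none in R1000 and 13 had none in R4000.
The 2107 genes with narrower parental peaks only had medians of 150, 600, 550, 150 and 50 bp. Among them 904 (42.9%) had no peak in R4000. Both sets had higher medians in R100 and R500 than in the parental line and lower ones in R4000. The genes with a wide peak started from more bases by the rule, so the difference in the share without a peak was not tested.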

How the data were processed

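H3K27me3 ChIP-seq peak lists of 5 lines were used, and RRBS was not used here. The authors sequenced 50-bp reads on an Illumina HiSeq 2000 and called peaks against input libraries by Poisson statistics in windows tiling the genome. The submitters' processing notes name Bowtie and mm9. The authors deposited 1 list per line with chromosome, start and end, so the values are positions in bp, and neither heights nor counts were used here. The depth of each library, the threshold of the lists and whether replicates were pooled are not given in the sources used here. In the lists of R100 and R500 every peak stands 2 times and was counted once.

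Peaks at least 500 bp wide were taken from the parental list. Positions fell within the chromosomes of NCBIM37 (mm9), chromosome Y not compared. Sequence was read from that genome, and genes, with the 5′ end as the TSS, from GENCODE vM1. A peak was assigned to the nearest TSS, and a gene was counted within 5 kb of its TSS on either side. An overlap was at least 1 bp. Intervals are 95% Wilson intervals for shares and binomial order-statistic intervals for medians. Other copies were sought with minimap2 2.31-r1302 (at least 50% of the peak at 90% identity). Python 3.11.15, numpy 2.4.6, pandas 2.3.3, scipy 1.17.1 and matplotlib 3.10.9 were used. The coverage step was tested on simulated data, where 0 of 2000 queries differed from a base-by-base count. Gene names followed the annotation, with Sfpi1 for Spi1, and Foxl1, Sox1 and Rpl41 were not matched.

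The members and gene lists were chosen with earlier results of these data known. Named genes are those of the 10 widest peaks, list members with a wide peak (all where at most 8, otherwise those with the most wide bases), the 5 loci with the most wide bases, the 5 widest peaks over 5 kb from a TSS, up to 6 widest peaks found in no resistant line or wholly covered in all 4, and B-cell and Polycomb genes with any parental peak. The loci ranked after the fifth, the genes named as outside the lists, the peaks near Hoxb9 and Hoxb13, the peak near Tmem64, Hoxb8 and the genes of the closing section were chosen after their values were seen, and so were the 15 genes plotted by line. Alternatives were other widths, joined peaks, other distances, protein-coding genes only, an overlap of at least 50% and shorter resistant lists.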

Additional observations from a re-analysis of the deposited data

How the results depend on the processing

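No paired analysis was possible because there is 1 list per line and the labels carry no replicate numbers. Of 78 alternative values of the 12 main results, 48 stayed within the interval of the reported value (or within 1.5 times a count) and 30 moved; none has a test. With a width of at least 1000 bp there were 90 peaks, 66 genes and a median CpG ratio of 0.588; R100, R500 and R1000 overlapped 100% and R4000 98.9%, with median covered shares of 80.4% in R1000 and 71.2% in R4000. With a width of at least 400 bp the shares found were 92.6%, 95.7%, 89.2% and 78.1%, and the median covered in R4000 was 37.5%. With parental peaks within 200 bp joined, the medians covered were 85.7%, 92.3%, 52.4% and 33.3%, and 88.9% and 78.1% were found in R1000 and R4000. The share near a TSS was 61.4% within 2 kb and 71.6% for protein-coding genes only. An overlap of at least 50% of the peak gave 85.1%, 89.8%, 64.8% and 48.5%. Keeping the 6820 widest peaks of each list gave 91.4%, 94.2%, 91.1% and 85.1% by rising dose, so that R100 and R1000 were closer than the 95.1% and 92.9% from the whole lists. With the widest peak of each locus, an alternative chosen after seeing the data, 81.6% were near a TSS and the CpG ratio was 0.560; leaving out peaks with another copy, also added then, left 544 peaks, 336 genes and a share of 84.9% found in R4000, the results it was run on. Of 108 alternative counts for the gene lists, 27 moved. The unknown depth limits every comparison of extent between lines, and its part was not tested.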

Other observations

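Several genes of growth control and early response, chosen after their values were seen, carried a wide parental peak. Myc, the gene whose transgenic copy drives the lymphoma, had a 1100-bp peak that began 355 bp downstream of the TSS of the endogenous gene (chr15:61817301-61818400). Within 5 kb of that TSS, 1800, 4150, 4500, 2200 and 1850 bp lay in peaks, in the order of the parental line and the resistant lines by rising dose. Reads from the transgene and from the endogenous gene cannot be told apart where their sequence is shared. Id1, an inhibitor of bHLH factors, had 3 wide peaks and 3550, 3950, 4700, 3200 and 2500 bp in the same order of lines. Ccnd2, which encodes cyclin D2, also had 3 wide peaks, with 3866, 5550, 5666, 4316 and 3616 bp. The immediate early genes Egr3 and Fos had 1 wide peak of 600 bp each. Around Fos 1150, 2961, 2650, 1150 and 1300 bp lay in peaks, and around Egr3 1750, 3550, 3300, 1950 and 1800 bp, so neither fell below the parental value in a resistant line. Nr4a3 and Fosl2, also with a wide peak, did so in R4000, with 2750 against 3050 bp and 600 against 1000 bp. Over the 339 genes with a wide peak, R4000 had fewer bases than the parental line at 278.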
